A study of Canis lupus familiaris with 10 samples.

Results

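The genes described here are 35 genes of glycolysis and of the wider hypoxia response, 23 that carry or process glucose and lactate or set the pace of that route, and 12 other genes that low oxygen is known to raise. They were chosen as a list of symbols, and a gene was read from a probe set that the platform annotation gave to that symbol alone, taking the probe set with the highest mean where there were several. By this rule 34 of the 35 had a value, out of 15947 genes in the series. Of these, 32 passed the signal filter and were tested, 21 of the glycolysis genes and 11 of the other hypoxia targets. GAPDH was named only by probe sets that the annotation also gives to other genes and was not analysed here. PFKM, a phosphofructokinase subunit, and CA9, a carbonic anhydrase of the cell surface, lay below the filter level on all 10 arrays and were not tested.

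Glycolysis turns glucose that enters through carriers such as SLC2A1 into pyruvate, which is reduced to lactate and exported by SLC16A3 or burned in mitochondria. Cells short of oxygen stabilise the HIF transcription factors, because the EGLN prolyl hydroxylases that mark HIF for destruction through VHL need oxygen to act. HIF then raises carriers and enzymes of glycolysis, PDK1, which keeps pyruvate out of mitochondria, the growth factor VEGFA, the mitophagy receptors BNIP3 and BNIP3L, and EGLN3 itself as feedback. Many of the same genes also answer to growth factors, nutrients and stress, and no change of oxygen is named in the labels of this study.

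RNA came from MDCK cells, a dog kidney epithelial cell line, in a line overexpressing human BLT2 and in a Mock line. BLT2 is a cell surface receptor for the lipid 12-HHT, and the title asks what this pair does to expression in a calcium switch. Both lines were sampled when confluent in DMEM with 10% FCS (0 h), after 2 h and 18 h in the calcium-free medium SMEM, after a further 2 h in DMEM following the 18 h (calcium return), and after that return with 200 nM 12-HHT. Each of the 10 combinations of line and step was 1 Canine Gene 1.0 ST array of RNA mixed from 3 preparations, so there are no replicate arrays, and whether either line is a single clone is not given in the sources used here.

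Array medians lay between 7.16 and 7.27 on the log2 scale, and the number of arrays limits the precision. Of 9 kidney epithelium markers with a probe set, 7 lay above the filter level of 7.21 on every array, CDH1, EPCAM and keratin genes among them. Of 8 fibroblast, 8 endothelium and 7 leukocyte markers, 6, 6 and 5 were below it on every array, PDGFRA, PECAM1 and PTPRC among them. The fibroblast marker COL1A1, the endothelium markers VWF and FLT1 and the leukocyte markers CD68 and CD14 were above it on 2 arrays or more. COL1A1 and 1 of the 2 endothelium markers were above it on every array. The summed log2 level of the kidney list was 88.4 to 92.3 over the arrays, that of the fibroblast list 50.5 to 53.5, of the endothelium list 54.2 to 56.3 and of the leukocyte list 41.8 to 43.8. In cultures measured as a whole, fewer cells with a transcript and less of it per cell cannot be told apart. The labels name serum only at 0 h, and the medium changed together with calcium, so what calcium, medium and serum each do cannot be told apart.

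Values below are log2 signals, and changes are differences of log2 signal. Fitted changes are given ± SE from an additive limma fit of line and step over all 10 arrays, in which a gene was called at an adjusted p under 0.05 over 10498 genes. Its error comes from how far the lines depart from moving in parallel, so a gene on which the lines respond differently has a large error in it.

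The members differed widely in how much they varied over the 10 arrays. Of 22 glycolysis genes, 9 stayed within 0.5 from their lowest to their highest signal, and 8 spanned more than 1. The steadiest was PGAM1, phosphoglycerate mutase, with signals from 12.06 to 12.23, followed by the enolase ENO1 (11.89 to 12.10) and the pyruvate kinase PKM (11.13 to 11.41). The aldolase ALDOA spanned 7.78 to 8.08, the lactate dehydrogenase LDHA 12.75 to 13.04, and the phosphofructokinase PFKP 11.56 to 11.87. SLC2A3, HK2, PFKFB3, PDK1, SLC16A3, ENO2, ALDOC and PFKFB4 were the 8 genes with spans over 1. Among 12 other hypoxia targets 3 spanned more than 1, namely EGLN3, BNIP3 and NDRG1, and 2 stayed within 0.5, EGLN1 and P4HA1.

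**Figure D1:**
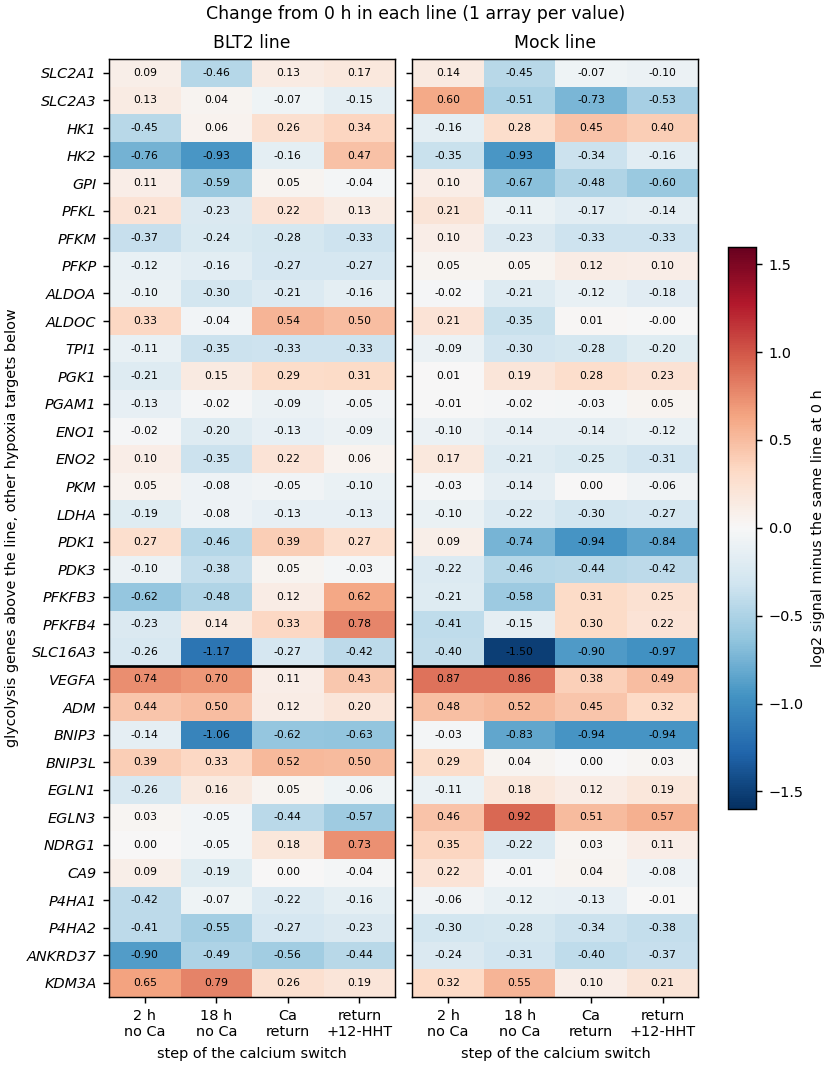
Change in log2 signal from the same line at 0 h for 34 genes (rows) at 4 later steps (columns), with the BLT2 line on the left and the Mock line on the right, 1 array per value. SLC16A3 and HK2 are lowest at 18 h without calcium in both lines, and BNIP3 is low at 18 h and after it, while VEGFA and KDM3A are highest at 2 h or 18 h.

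After 2 h without calcium VEGFA, which drives growth of blood vessels, rose 1.75-fold, and no glycolysis gene passed the test. VEGFA had 10.24 in BLT2 and 10.41 in Mock cells at 2 h, against 9.50 in BLT2 and 9.54 in Mock cells at 0 h. Both arrays at 2 h lay above both at 0 h, and the fitted change was 0.81 ± 0.10 (limma adjusted p = 0.00979). KDM3A, a histone demethylase that needs oxygen, was at 0.48 ± 0.12 (limma adjusted p = 0.0622), and ADM, the vasodilator adrenomedullin, at 0.46 ± 0.11 (limma adjusted p = 0.0604) against 0 h signals under the filter level. The hexokinase HK2 was at -0.55 ± 0.21, with -0.76 in BLT2 and -0.35 in Mock cells, and did not pass. ANKRD37, a small ankyrin repeat protein, was at -0.57 ± 0.16, with -0.90 in BLT2 and -0.24 in Mock cells (limma adjusted p = 0.0855), and only its 2 signals at 0 h lay above the filter level.

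Of 11 other hypoxia targets 1 was called at 2 h, higher, and of 21 glycolysis genes 0. Of these 21, 3 were at an unadjusted p under 0.05 in limma, as were 2470 of all 10498 genes. Over all genes 4.62% were called, 2.64% higher and 1.98% lower, and the share of members is near that background. With median centring of the arrays the split over all genes was 211 higher and 101 lower, against 277 and 208. The VEGFA call did not hold when either 0 h array or the BLT2 2 h array was left out, with adjusted p reaching 0.0840.

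After 18 h without calcium 5 of 21 glycolysis genes were called lower than at 0 h, with the lactate exporter the furthest down, while 12.2% of all genes were called lower and 27.2% in either direction. SLC16A3 had 9.65, 9.39, 8.48, 9.37 and 9.23 in BLT2 cells at 0 h, 2 h, 18 h, return and return with 12-HHT, and 9.68, 9.28, 8.18, 8.78 and 8.71 in Mock cells. The 18 h array was the lowest in each line. SLC16A3 thus fell 2.53-fold at 18 h against 0 h, a change of -1.34 ± 0.16 (limma adjusted p = 0.00249), with -1.17 in BLT2 and -1.50 in Mock cells.

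HK2, the hexokinase form that cells raise on demand, had 9.58, 8.82, 8.65, 9.42 and 10.05 in BLT2 cells over the same steps, and 9.12, 8.77, 8.19, 8.78 and 8.95 in Mock cells. Its change at 18 h was -0.93 ± 0.21 (limma adjusted p = 0.0184), a fall of the same size in both lines. HK1, the constitutive hexokinase, did not follow and was at 0.17 ± 0.11. GPI, the isomerase after hexokinase, had 11.34, 11.45, 10.75, 11.39 and 11.31 in BLT2 cells and 11.30, 11.41, 10.63, 10.82 and 10.70 in Mock cells. Its level at 18 h was 1.55-fold lower than at 0 h (-0.63 ± 0.17, limma adjusted p = 0.0328).

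The main glucose carrier SLC2A1 had 12.39, 12.48, 11.93, 12.52 and 12.55 in BLT2 cells and 12.47, 12.61, 12.02, 12.40 and 12.37 in Mock cells. It too was lowest at 18 h in each line and fell by 0.45 against 0 h (SE 0.11, limma adjusted p = 0.0246). TPI1, triose phosphate isomerase, fell by 0.33 (SE 0.09, limma adjusted p = 0.0335). The calls of SLC2A1 and TPI1 depended on the scaling of the arrays, as given below. None of the regulatory kinases was called at 18 h. PFKFB3, which makes the activator of phosphofructokinase, was at -0.53 ± 0.18 (limma adjusted p = 0.0602), PDK3 at -0.42 ± 0.14 (limma adjusted p = 0.0612) and PDK1 at -0.60 ± 0.32 (limma adjusted p = 0.209), while PFKFB4 was at -0.00. The enzymes of the lower part of the route other than TPI1 ranged from -0.28 (ENO2) to 0.17 (PGK1, phosphoglycerate kinase), none of them called.

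None of the 21 glycolysis genes was called higher at 18 h, while 15.0% of all genes were. An unadjusted p under 0.05 in limma was reached by 8 of the 21 and by 4214 of all 10498 genes. The fitted change was negative for 19 of the 21, against 47.8% of all genes, and 16 of the 21 were negative in each line. The median of the 21 was -0.23, that of all genes 0.02.

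The other hypoxia targets moved both ways at 18 h, 3 of 11 higher and 2 lower. VEGFA had 9.50, 10.24, 10.20, 9.61 and 9.93 in BLT2 cells over the steps, and 9.54, 10.41, 10.41, 9.92 and 10.04 in Mock cells. It stood at both calcium-free steps above every other step of its line, and its rise at 18 h was 0.78 ± 0.10 (limma adjusted p = 0.00290). KDM3A had 9.81, 10.46, 10.60, 10.07 and 10.00 in BLT2 cells and 9.96, 10.28, 10.51, 10.07 and 10.17 in Mock cells, and rose 1.59-fold (0.67 ± 0.12, limma adjusted p = 0.00706). ADM had 7.04, 7.48, 7.54, 7.17 and 7.24 in BLT2 cells and 7.06, 7.54, 7.59, 7.51 and 7.38 in Mock cells. It was called higher at 18 h (limma adjusted p = 0.0144), but both 0 h signals lay under the filter level, as did that of BLT2 cells on return, and it entered the test only through steps at which it was higher. With the filter level in place of the 0 h signals, ADM was at least 1.28-fold higher at 18 h. On return ADM differed from 18 h by -0.37 in BLT2 and by -0.08 in Mock cells.

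BNIP3, which targets mitochondria for removal, went the other way and fell 1.92-fold at 18 h (-0.94 ± 0.16, limma adjusted p = 0.00605). It had 9.64, 9.50, 8.58, 9.02 and 9.01 in BLT2 cells and 9.78, 9.75, 8.96, 8.84 and 8.85 in Mock cells. The 3 later steps lay below 0 h and 2 h in each line. Its relative BNIP3L was at 0.19 in the same fit and not called. P4HA2, a collagen prolyl hydroxylase, fell by 0.41 (SE 0.12, limma adjusted p = 0.0399), and P4HA1, the other such subunit, was at -0.10. EGLN3, the feedback hydroxylase, was at 0.43 ± 0.26 in the fit, with -0.05 in BLT2 and 0.92 in Mock cells. EGLN1, the main oxygen sensor of the family, was at 0.17 and NDRG1, a stress-responsive growth suppressor, at -0.13, both without a call.

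With median centring the members called at 18 h were 3 higher and 4 lower, against 3 and 7 as deposited. SLC2A1, TPI1 and P4HA2 lost the call there, and TPI1 and P4HA2 also without a signal filter. The TPI1 call ended too when any return or 12-HHT array of either line was left out, although these arrays are outside the comparison. Over the fits without 1 array the TPI1 change ranged from -0.36 to -0.29. SLC16A3 and VEGFA held the call without each array in turn, while 8 members lost it without at least 1 of the Mock 0 h, Mock 18 h, BLT2 0 h and BLT2 18 h arrays (3, 4, 3 and 2 members called), where P4HA2 ranged from -0.56 to -0.27 with adjusted p reaching 0.294.

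**Figure D2:**
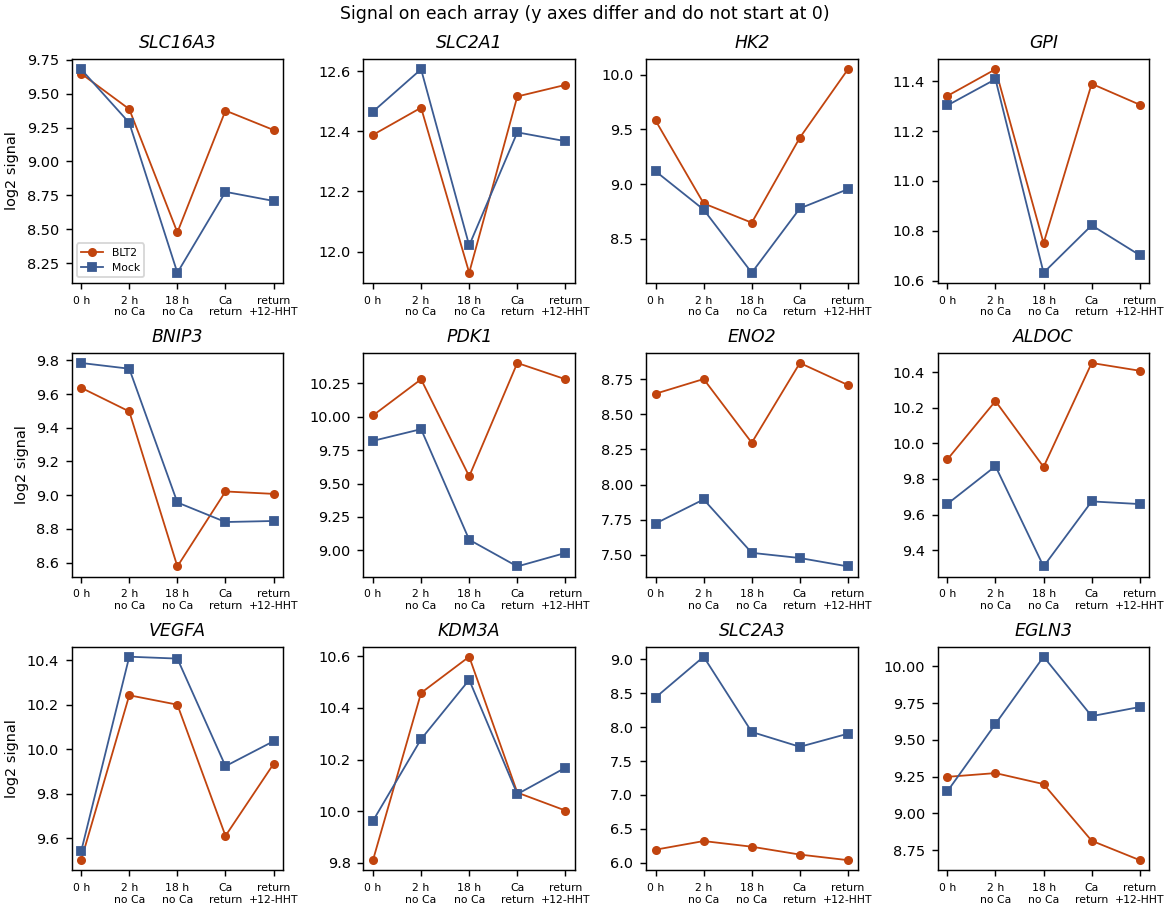
Log2 signal of 12 genes (panels) at the 5 steps on the horizontal axis, 1 array per point, circles for BLT2 and squares for Mock, with a vertical scale of its own in each panel that does not start at 0. SLC16A3, SLC2A1, HK2 and GPI dip at 18 h in both lines. The gap between the lines widens at calcium return in PDK1, GPI and ENO2, and in ENO2 the lines are apart at every step.

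Set against 2 h, the same 2 carriers, GPI and BNIP3 were lower at 18 h, and none of these 4 genes had been called at 2 h against 0 h. SLC16A3 fell by 1.01 (SE 0.16, limma adjusted p = 0.00906), GPI by 0.74 (SE 0.17, limma adjusted p = 0.0238), SLC2A1 by 0.57 (SE 0.11, limma adjusted p = 0.0152) and BNIP3 by 0.86 (SE 0.16, limma adjusted p = 0.0117). HK1 rose by 0.47 ± 0.11 (limma adjusted p = 0.0216) and EGLN1 by 0.35 ± 0.10 (limma adjusted p = 0.0439). HK2 differed by -0.38 between 18 h and 2 h, without a call.

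For 18 h against 2 h 1 of 21 glycolysis genes was higher and 3 lower, and 1 of 11 other hypoxia targets higher and 1 lower, while 22.7% of all genes were called, 14.3% higher and 8.33% lower. The split of the 32 members was 2 higher and 4 lower as deposited, 1 and 5 after quantile normalization and 1 and 4 with median centring. Without the Mock 18 h array 1 member was called and without the BLT2 18 h array 0, while EGLN1 was called in none of the 10 fits that left out an array, where its adjusted p reached 0.278.

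When calcium was returned for 2 h, VEGFA fell 1.45-fold from its 18 h level, to 9.61 in BLT2 and 9.92 in Mock cells, against 10.20 in BLT2 and 10.41 in Mock cells at 18 h (-0.54 ± 0.10, limma adjusted p = 0.0369). KDM3A was at -0.48 ± 0.12 without a call (limma adjusted p = 0.0729). No glycolysis gene passed the test on return. SLC16A3 was at 0.75 ± 0.16 (limma adjusted p = 0.0581), with 0.90 in BLT2 and 0.60 in Mock cells. PFKFB3 was at 0.75 ± 0.18 (limma adjusted p = 0.0708), with 0.60 in BLT2 and 0.89 in Mock cells, and SLC2A1 at 0.48 ± 0.11 (limma adjusted p = 0.0695). HK2 was at 0.68 ± 0.21 and ALDOC, a brain-type aldolase, at 0.48 ± 0.15.

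On calcium return against 18 h 0 of 21 glycolysis genes were called, and 1 of 11 other hypoxia targets was called lower. Of the 21, 6 were at an unadjusted p under 0.05 in limma, as were 2009 of all 10498 genes. Over all genes 3.34% were called, 0.772% higher and 2.57% lower. The change was positive for 17 of the 21 glycolysis genes, against 52.6% of all genes, with a median of 0.19 against 0.02 over all genes. The 18 h arrays also enter 18 h against 0 h, so the opposite signs in these 2 comparisons are not independent. After quantile normalization 2 members were higher and 1 lower. Of the 10 fits that each left out an array, VEGFA was called in the 2 that left out a 2 h array, and its adjusted p reached 0.303 in the other 8.

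Set against 0 h, calcium return left BNIP3 lower by 0.78 (SE 0.16, limma adjusted p = 0.0185), with -0.62 in BLT2 and -0.94 in Mock cells. SLC16A3 was at -0.59 ± 0.16 (limma adjusted p = 0.0511), with -0.27 in BLT2 and -0.90 in Mock cells. VEGFA was at 0.25, with 0.11 in BLT2 and 0.38 in Mock cells, and SLC2A1 at 0.03, with 0.13 in BLT2 and -0.07 in Mock cells, both without a call. Of 21 glycolysis genes 0 were called, and of 11 other hypoxia targets 1, lower. Over all genes 15.0% were called, 7.75% higher and 7.29% lower. An unadjusted p under 0.05 in limma was reached by 4 of the 21 glycolysis genes and by 3277 of all 10498 genes. The members split into 1 higher and 2 lower after quantile normalization, and leaving out either 0 h array or the Mock array at return ended the BNIP3 call, with adjusted p reaching 0.116.

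**Figure D3:**
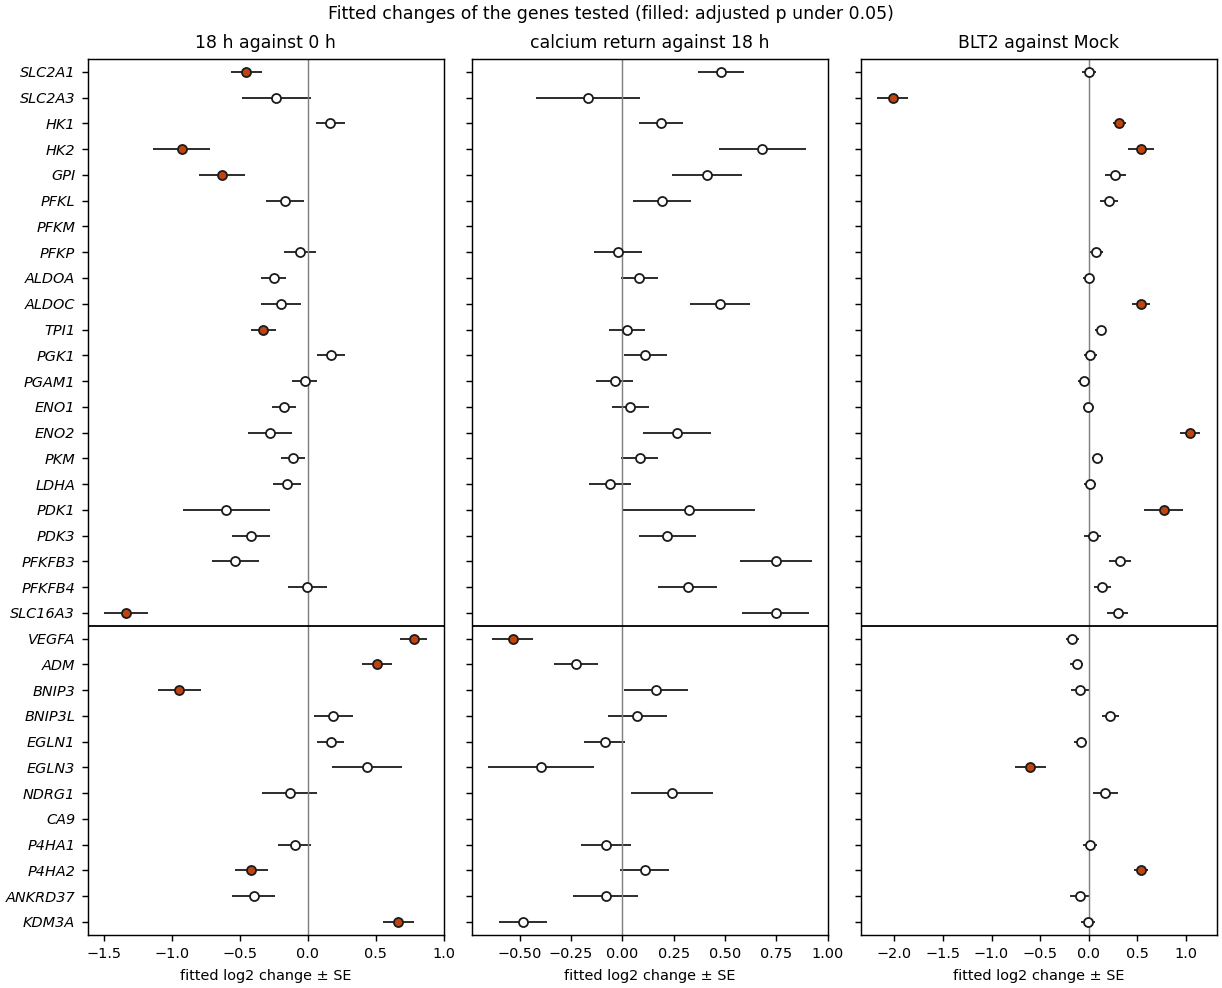
Fitted log2 change ± SE (horizontal axis, scales differ) of the 32 genes tested, for 18 h against 0 h, calcium return against 18 h, and BLT2 against Mock, with filled points for an adjusted p under 0.05. The left panel has 7 members called lower and 3 higher, the middle panel VEGFA alone, and the right panel 6 higher and 2 lower.

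The gap between the lines was called wider at calcium return for 3 of 32 members (9.38%), where 11.3% of all genes were called in either direction. PDK1 widened the most, while ENO2 was already 0.92 apart at 0 h. PDK1 had 10.01, 10.28, 9.55, 10.40 and 10.28 in BLT2 cells at 0 h, 2 h, 18 h, return and return with 12-HHT, and 9.82, 9.91, 9.08, 8.88 and 8.98 in Mock cells. It was low at 18 h in both lines, then stood above its 0 h level in BLT2 cells and stayed at its 18 h level or below in Mock cells. Its BLT2 minus Mock difference was 1.52 on return and 1.30 on return with 12-HHT, and 0.19, 0.37 and 0.47 at 0 h, 2 h and 18 h.

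A limma fit of the 5 differences between the lines, 1 per step, asked whether their mean over the 2 return steps differed from that over the 3 earlier steps. For PDK1 the gap widened by 1.07 ± 0.13 (limma adjusted p = 0.00809). For GPI it widened by 0.52 ± 0.10 (limma adjusted p = 0.0223), with differences of 0.57 and 0.60 at the return steps and 0.04, 0.04 and 0.12 before. For ENO2, the neuronal enolase, it widened by 0.48 ± 0.10 (limma adjusted p = 0.0308), with 1.39 and 1.29 at the return steps and 0.92, 0.86 and 0.78 before. In each of these genes the BLT2 signal was higher at both return steps than at 18 h.

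Further members had the same sign without passing. BNIP3 was at 0.43 ± 0.11 (limma adjusted p = 0.0501), PDK3 at 0.37 ± 0.10 (limma adjusted p = 0.0601), the liver-type phosphofructokinase PFKL at 0.37 ± 0.11 (limma adjusted p = 0.0643) and SLC16A3 at 0.44 ± 0.13 (limma adjusted p = 0.0659). On return alone, SLC16A3 had 9.37 in BLT2 and 8.78 in Mock cells, and PFKL 9.22 in BLT2 and 8.73 in Mock cells. HK2 was at 0.54 ± 0.18 and ALDOC at 0.37 ± 0.12.

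In this comparison 3 of 21 glycolysis genes were called, all with a wider gap towards BLT2, and 0 of 11 other hypoxia targets. Of these 11, 2 were at an unadjusted p under 0.05 in limma, as were 3318 of all 10498 genes. Over all genes 11.3% were called, 8.50% in that direction and 2.84% in the other. The median was 0.19 for the glycolysis genes, with 17 of 21 positive, against a median of 0.03 and 53.4% positive over all genes. Calls over all genes split into 824 and 575 after quantile normalization, against 892 and 298 as deposited. No member was called without the difference at calcium return, where PDK1 had an adjusted p of 0.0728, and GPI and ENO2 also lost the call without the difference at 0 h or at return with 12-HHT, as did ENO2 without that at 18 h, where adjusted p reached 0.249 for ENO2 and 0.166 for GPI.

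By size alone, with 1 array against 1 array and no test, ENO2 was at least 1.5-fold higher in BLT2 than in Mock cells and SLC2A3 at least 1.5-fold lower at each of the 5 steps as measured. Of 21 glycolysis genes whose higher signal lay above the filter level, ENO2 and SLC2A3 were the only ones past that size at the 3 earlier steps. Over all genes 1.80% were higher and 2.09% lower by as much at 0 h, 4.23% and 6.67% at 2 h, and 1.62% and 1.97% at 18 h. On calcium return HK2, ALDOC, PDK1 and SLC16A3 joined ENO2, 5 of 21, where 8.91% of all genes were higher and 3.69% lower. On return with 12-HHT it was 6 of 21, HK2, GPI, ALDOC, ENO2, PDK1 and PFKFB3, where 7.71% of all genes were higher and 5.19% lower. Of 10 other hypoxia targets above the filter level, EGLN3 was lower by that much in BLT2 cells at 18 h and at both return steps, P4HA2 higher at both return steps and NDRG1 higher on return with 12-HHT.

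**Figure D4:**
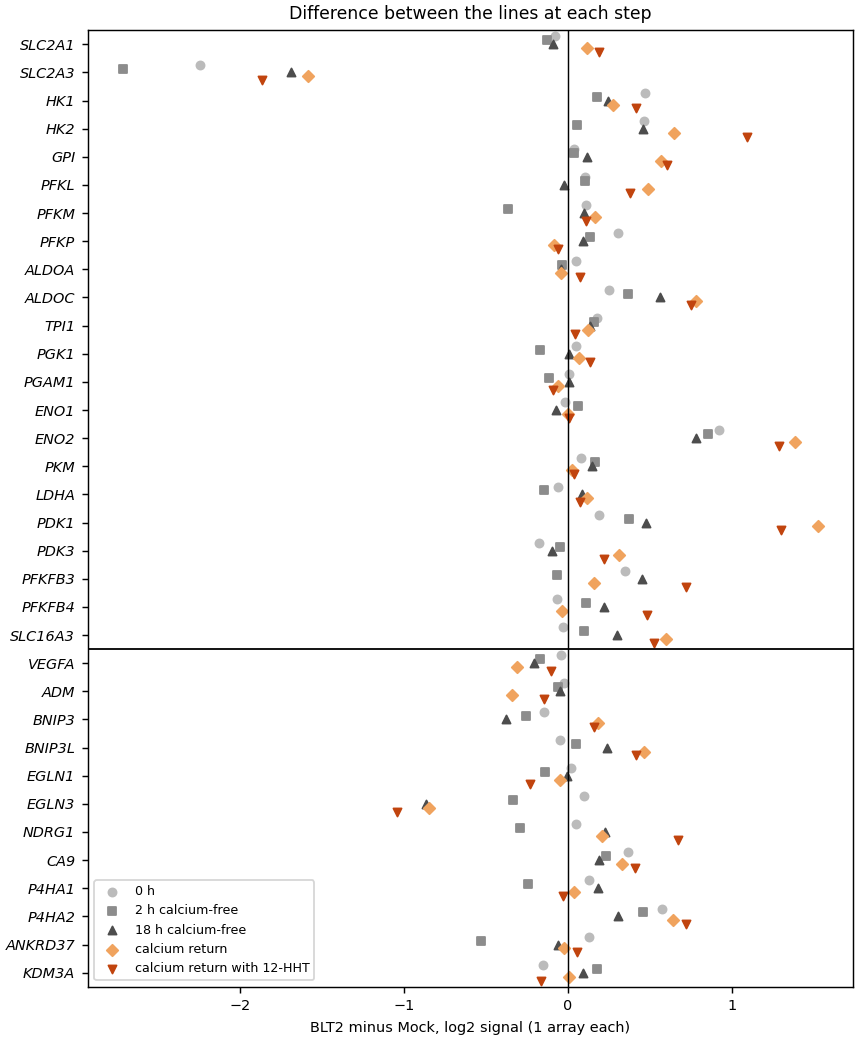
BLT2 minus Mock difference in log2 signal (horizontal axis) of 34 genes at each of the 5 steps, grey for the steps before calcium return and orange to red for the return steps, 1 array per line and step. PDK1, GPI and ENO2 lie further right at both return steps than before, and SLC2A3 lies left of 0 throughout.

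Averaged over the steps, BLT2 cells had less of the high-affinity glucose carrier SLC2A3 and more of several glycolytic isoforms than Mock cells. SLC2A3 had 6.19, 6.32, 6.24, 6.12 and 6.04 in BLT2 cells, under the filter level on all 5 arrays, and 8.44, 9.04, 7.93, 7.71 and 7.90 in Mock cells. It entered the test only through the Mock arrays. With the filter level in place of the BLT2 signals, Mock cells had at least 1.99-fold more. The fitted difference of -2.02 (limma adjusted p = 0.00107) rests on BLT2 signals that carry little information and is no bound. In Mock cells SLC2A3 was highest at 2 h, 0.60 above its 0 h signal, and at 18 h 0.51 below it.

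ENO2 averaged 8.65 in BLT2 and 7.61 in Mock cells, a 2.07-fold difference (1.05 ± 0.10, limma adjusted p = 0.00198), with 8.65, 8.75, 8.30, 8.86 and 8.71 in BLT2 cells and 7.72, 7.89, 7.51, 7.48 and 7.42 in Mock cells. ALDOC was higher in BLT2 cells at each of the 5 steps, by 0.25, 0.37, 0.56, 0.78 and 0.75 (0.54 ± 0.09 on average, limma adjusted p = 0.0114). P4HA2 was also higher at each step, with 11.13, 10.72, 10.58, 10.86 and 10.90 in BLT2 cells and 10.56, 10.26, 10.28, 10.22 and 10.18 in Mock cells (0.54 ± 0.08, limma adjusted p = 0.00612). For ENO2 and P4HA2 every BLT2 array lay above every Mock array. SLC2A3 is not counted with them, since it entered the test only through the Mock arrays.

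HK1 was higher in BLT2 cells by 0.32 ± 0.07 (limma adjusted p = 0.0223), HK2 by 0.54 ± 0.13 (limma adjusted p = 0.0355) and PDK1 by 0.77 ± 0.20 (limma adjusted p = 0.0425), the last carried mostly by the return steps given above. EGLN3 was lower in BLT2 cells (-0.60 ± 0.16, limma adjusted p = 0.0474). It had 9.25, 9.27, 9.20, 8.81 and 8.68 in BLT2 cells and 9.15, 9.61, 10.07, 9.66 and 9.72 in Mock cells. Its BLT2 minus Mock difference was 0.10 at 0 h and -0.87 at 18 h, with BLT2 the lower at the 4 steps after 0 h.

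Between the lines 5 of 21 glycolysis genes were higher in BLT2 and 1 lower, SLC2A3, and 1 of 11 other hypoxia targets higher and 1 lower, while 15.9% of all genes were called, 7.82% higher and 8.13% lower. After quantile normalization 6 members were higher and 1 lower. ENO2, ALDOC and P4HA2 were called without each array in turn. SLC2A3, counted above as lower, was too, but this adds no support. It passed the filter only through the Mock arrays, where it was high. HK1 and HK2 were called only without a 2 h array, with limma adjusted p reaching 0.0907 and 0.0844 in the other fits. PDK1 and EGLN3 were called only without a 0 h array, with limma adjusted p reaching 0.131 and 0.146 in the others. Thus 4 members were called when an 18 h, return or 12-HHT array of either line was left out.

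With 200 nM 12-HHT during the return, a small set of members was higher in BLT2 cells than on return alone, and these values compare 1 array with 1 array without a test. HK2 had 10.05 with 12-HHT and 9.42 without in BLT2 cells, a difference of 0.62, and 8.95 with and 8.78 without in Mock cells, a difference of 0.18. NDRG1 had 12.41 with and 11.86 without in BLT2 cells (0.55), and 11.74 with and 11.66 without in Mock cells (0.08). PFKFB3 had 10.91 with and 10.41 without in BLT2 cells (0.50), and 10.19 with and 10.25 without in Mock cells (-0.06). With 12-HHT each of the 3 had its highest signal of all 10 arrays in BLT2 cells.

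PFKFB4, the related kinase, had 8.38 with and 7.94 without in BLT2 cells (0.45), and 7.90 with and 7.97 without in Mock cells (-0.08). VEGFA had 9.93 with and 9.61 without in BLT2 cells (0.32), and 10.04 with and 9.92 without in Mock cells (0.11). The remaining members did not share this pattern: PDK1 was at -0.12 in BLT2 and 0.10 in Mock cells, SLC16A3 at -0.14 in BLT2 and -0.07 in Mock cells, and ENO2 at -0.16 in BLT2 and -0.06 in Mock cells.

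Of 30 members whose higher signal lay above the filter level in BLT2 cells, 1 was at least 1.5-fold higher with 12-HHT, HK2, and 0 lower, where 0.370% of 10011 genes were higher and 0.110% lower by that much. In Mock cells it was 0 of 31 in either direction, where 0.0687% of 10190 genes were higher and 0.0393% lower. In BLT2 cells 30 of the 10011 genes differed upward by as much as HK2 or more, 44 by as much as NDRG1, 50 by as much as PFKFB3, 68 by as much as PFKFB4 and 168 by as much as VEGFA, counting each gene itself. The median difference of the members was 0.00 in BLT2 and 0.02 in Mock cells. A limma fit of 12-HHT against none over both lines called 0 of 32 members and 0% of all genes. In it 0 members and 29 of 10498 genes were at an unadjusted p under 0.05. Far fewer genes passed 0.05 than would with no effect at all, so the error of this fit was too wide here. A response of BLT2 cells alone is averaged with Mock cells and enters the error too. The 0 calls therefore say little about 12-HHT. HK2 was at 0.40 in that fit, NDRG1 at 0.31, PFKFB3 at 0.22 and VEGFA at 0.22.

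**Figure D5:**
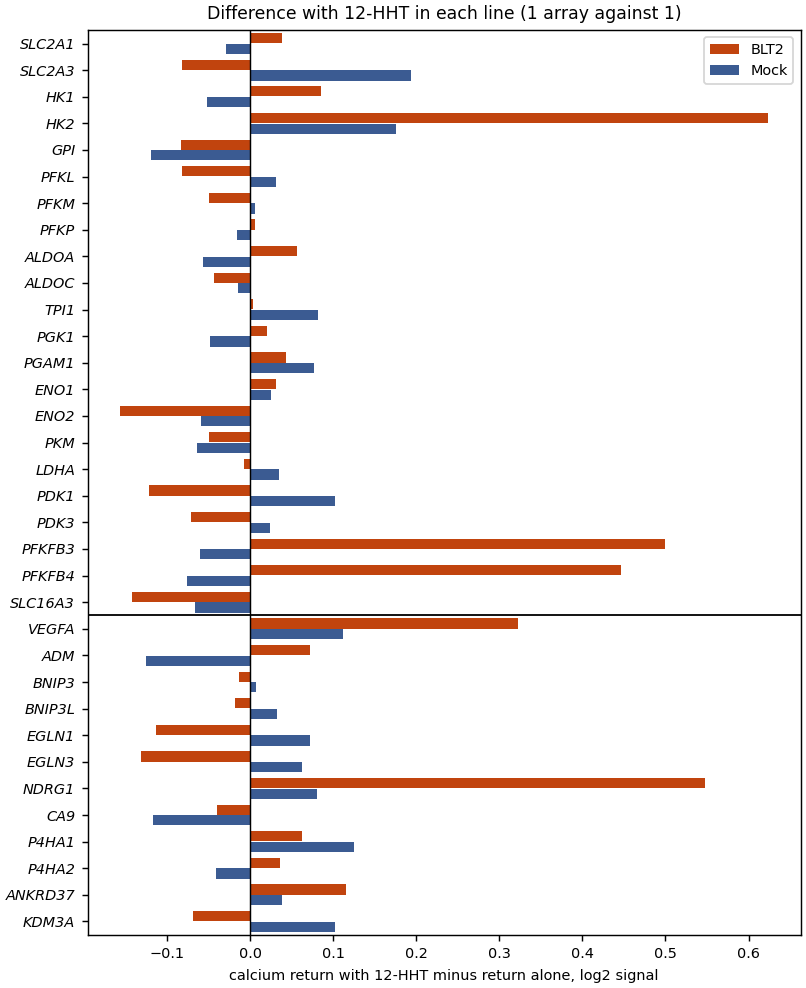
Log2 signal on calcium return with 12-HHT minus return alone (horizontal axis) for 34 genes, with a bar for BLT2 and a bar for Mock, 1 array against 1 array. The BLT2 bars of HK2, NDRG1, PFKFB3, PFKFB4 and VEGFA reach 0.62, 0.55, 0.50, 0.45 and 0.32, and every Mock bar lies within 0.20 of 0.

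The factors that control these genes were read from a list of HIF regulators. HIF1A, the oxygen-regulated subunit itself, was steady, with signals from 11.32 to 11.53 in BLT2 and 11.31 to 11.49 in Mock cells and a change of 0.12 ± 0.09 at 18 h against 0 h (limma adjusted p = 0.383), a gene singled out after its values were seen. HIF protein is set mainly by its stability, which these arrays do not measure. EPAS1, which encodes HIF-2 alpha, had 7.36, 7.42, 9.09, 8.73 and 8.67 in BLT2 cells and 7.21, 7.03, 8.84, 8.67 and 8.66 in Mock cells. It rose by 1.68 ± 0.12 at 18 h against 0 h (limma adjusted p = 0.00102) and was still 1.42 ± 0.12 above 0 h on return (limma adjusted p = 0.00249). Its signals at 0 h lay close to the filter level of 7.21, and that of Mock cells at 2 h lay below it. Low signals understate change. Of 13 regulators tested 3 rose and 2 fell at 18 h against 0 h, where 15.0% of all genes were called higher and 12.2% lower. On return against 0 h 2 were higher, where 7.75% of all genes were.

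Further HIF targets outside the 35 moved both ways. Of 28 tested, 3 rose at 2 h, where 2.64% of all genes were called higher, and 7 rose and 4 fell at 18 h against 0 h, where 15.0% were called higher and 12.2% lower. DDIT4, an inhibitor of mTOR signalling, rose by 1.63 ± 0.13 at 18 h (limma adjusted p = 0.00146), VLDLR, a lipoprotein receptor, by 1.32 ± 0.14 (limma adjusted p = 0.00205) and ANGPTL4, which inhibits lipoprotein lipase, by 1.23 ± 0.35 (limma adjusted p = 0.0385). PLOD1, a collagen lysyl hydroxylase, fell by 1.14 (SE 0.12, limma adjusted p = 0.00207) and AK4, a mitochondrial adenylate kinase, by 1.02 (SE 0.21, limma adjusted p = 0.0124). These 2 were singled out after their values were seen and were not refitted without single arrays. At 2 h VLDLR had risen by 1.33 ± 0.14 (limma adjusted p = 0.00466), and DDIT4 had risen too (limma adjusted p = 0.00216). Leaving out any of the 4 arrays at 0 h and 18 h ended the ANGPTL4 call, with adjusted p reaching 0.252 and values from 0.81 to 1.65. On return against 18 h 2 rose and 1 fell, where 0.772% of all genes were called higher and 2.57% lower. The carbonic anhydrase CA12 rose by 1.39 ± 0.13 (limma adjusted p = 0.00906) and HMOX1, heme oxygenase, by 1.19 ± 0.13, while the hormone STC2 fell by 1.04 (SE 0.12). These 3 calls ended when either 18 h array was left out, and those of HMOX1 and STC2 also when the Mock return array was (adjusted p reaching 0.158). Between the lines 1 was higher and 3 lower in BLT2, among them VLDLR at -1.37 ± 0.09, where 7.82% of all genes were higher and 8.13% lower. The gap between the lines on return widened towards BLT2 for 5 and towards Mock for 2, where 8.50% and 2.84% of all genes did, among them ANGPTL4 at -1.15 ± 0.16 (limma adjusted p = 0.0105, and 0.0731 without the difference at return with 12-HHT).

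Of 20 other glycolysis isoforms and pyruvate handling genes 1 rose and 4 fell at 18 h against 0 h, where 27.2% of all genes were called. Between the lines 1 was higher and 4 lower in BLT2 than in Mock cells, where 15.9% of all genes were called. TIGAR, which lowers the activator of phosphofructokinase, rose by 1.14 ± 0.25 at 18 h against 2 h (limma adjusted p = 0.0201), a call that ended when either 2 h array or the BLT2 18 h array was left out (adjusted p reaching 0.176). Of 5 gluconeogenesis genes 1 rose at 2 h, where 2.64% of all genes were called higher, and 2 had a wider gap towards BLT2 on return, where 8.50% did. At 18 h against 0 h 1 of the 5 and 1 of 4 pentose phosphate genes fell, where 12.2% of all genes did.

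In the glucose sensing list TXNIP and ARRDC4 rose at both calcium-free steps. TXNIP, an arrestin that restrains glucose uptake and is raised by glucose itself, had 10.97, 12.53, 12.90, 12.30 and 12.04 in BLT2 cells and 11.39, 12.61, 13.01, 11.58 and 11.86 in Mock cells. It rose by 1.78 ± 0.24 at 18 h against 0 h (limma adjusted p = 0.00315). Its relative ARRDC4 rose by 2.41 ± 0.16 (limma adjusted p = 0.000956) and fell by 1.22 (SE 0.16) on return against 18 h (limma adjusted p = 0.0147), a fall whose call ended when either 18 h array or the Mock return array was left out (adjusted p reaching 0.185). At 2 h TXNIP had risen by 1.39 ± 0.24 (limma adjusted p = 0.0227) and ARRDC4 by 1.38 ± 0.16 (limma adjusted p = 0.00795). Leaving out either 0 h array ended both calls (adjusted p reaching 0.210 and 0.0816), and that of TXNIP also ended without either 2 h or either 18 h array. They were the 2 of 5 genes tested in this list that were called at 2 h and at 18 h against 0 h, where 4.62% and 27.2% of all genes were called.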

How the data were processed

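Transcripts were measured on 10 GeneChip arrays, 1 per line and step, each from RNA mixed from 3 preparations per the labels' protocols. The values the authors deposited run upward from 1.55 and were read as log2 signals. Per the submitters' processing notes GCRMA and Affymetrix Expression Console were used, GCRMA being a background correction by probe sequence with scaling between arrays. Versions are not given in the sources used here. Shifts common to a whole array cannot be seen after such scaling, and low signals understate change.

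Of 32391 probe sets 16545 had 1 gene symbol in the platform annotation, 370 had several and 15476 were not listed with one. These gave 15947 genes, of which 10498 were tested, those whose signal passed 7.21 (the median over the whole table) in 2 arrays or more. All columns were matched to samples by name. Step comparisons and BLT2 against Mock were fitted with limma 3.58.1 (R 4.3.3, lmFit and eBayes) as an additive model of line and step, with 4 residual degrees of freedom and a prior of 3.46. The gap between the lines on return was fitted on the 5 BLT2 minus Mock differences, with 3. P-values were adjusted over all genes by Benjamini-Hochberg within each of 8 comparisons. In the additive fits the error is the departure from parallel lines. In the fit of the gap it is the scatter of the differences among the 3 earlier steps and between the 2 return steps. Neither is the spread of replicate cultures. The 12-HHT response within a line is given by size. The fits were run on simulated arrays with planted changes and independent errors. Such arrays cannot show how the additive fits behave where the lines respond differently.

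The members and lists were chosen with earlier results of these data known. All members are named. Of other lists the text gives counts and up to 3 called genes a comparison by size, from a log2 change of 1, and only part of these is printed. Alternatives were other signal filters, median centring, quantile normalization, averaging the probe sets of each gene, an intensity trend, subsets of arrays and leaving out each array.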

Additional observations from a re-analysis of the deposited data

Results flagged for a closer look

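For 3 members the difference between the lines on calcium return passed its own test. In it the 5 BLT2 minus Mock differences were compared between the 2 return steps and the 3 earlier ones. These were 9.38% of the 32 members tested, where 11.3% of all genes passed. The gap towards BLT2 widened by 1.07 for PDK1, by 0.52 for GPI and by 0.48 for ENO2 (log2, limma adjusted p = 0.00809, 0.0223 and 0.0308). Each of the 3 calls ended in at least 1 fit without the difference at 1 step, as given above. Without a signal filter 1 member was called. From the earlier to the return steps PDK1 differed by 0.39 in BLT2 and by -0.67 in Mock cells, GPI by 0.17 in BLT2 and by -0.35 in Mock cells, and ENO2 by 0.22 in BLT2 and by -0.26 in Mock cells.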

How the results depend on the processing

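Of 30 calls of members over the comparisons, none changed direction under any alternative run. Other signal filters, averaging probe sets and the intensity trend left each called member's estimate as it was, so its direction could not change. For comparisons of steps, fits without the 12-HHT arrays or with only the 4 arrays of the comparison did likewise. These calls could change direction only under other scalings or when arrays were left out. Outside the fits that left out an array they kept the call in 202 of 230 cases, and 6 kept it without each array in turn. Counts of members called at 2 h against 0 h were 1 as deposited, 2 with the stricter signal filter, after quantile normalization or with an intensity trend, 6 with only the 4 arrays of the comparison, and 0 to 3 without 1 array. At 18 h against 0 h they were 10, 16 with only the 4 arrays, and 2 to 12 without 1 array, and at 18 h against 2 h 6, and 0 to 5 without 1 array. For calcium return against 18 h they were 1, 0 without a filter, without the 12-HHT arrays or with only the 4 arrays, 4 with the stricter filter, 3 after quantile normalization or with the trend, and 0 to 2 without 1 array. For calcium return against 0 h they were 1, 4 with the stricter filter, 3 after quantile normalization or with the trend, and 0 to 2 without 1 array. BLT2 against Mock gave 8, 4 without the 12-HHT arrays, 3 with no step term, and 4 to 7 without 1 array. The line difference on return gave 3, 1 without a filter, 6 with the stricter filter, 8 with the trend, and 0 to 6 without the difference at 1 step. The 12-HHT fit, in which few genes could pass, gave 0 outside the fits without 1 array, and the count by size in each line did not move. Over all genes, counts called as deposited and their range over the alternatives were 485 (34 to 1805) at 2 h, 2860 (591 to 5460) at 18 h against 0 h, 2381 (37 to 2648) against 2 h, 351 (2 to 410) on return against 18 h, 1579 (40 to 1848) against 0 h, 1674 (386 to 1888) between the lines and 1190 (51 to 1756) for the line difference. Fits without 1 array or with 4 arrays have fewer residual degrees of freedom, and without 1 array a step left with 1 array is assumed to vary like the others. Replicates could not be paired, since each line and step has 1 array and the labels carry no replicate numbers. Line is a term of the main model, and the fit of the gap uses the difference between the lines at each step.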
